A study of Mus musculus with 8 samples.

Results

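The genes described here encode chaperones and folding enzymes of the endoplasmic reticulum (ER), components of ER-associated degradation (ERAD), and the sensors and transcription factors (TFs) of the unfolded protein response (UPR). A list of 47 such genes was taken by symbol from the array annotation, keeping features that carry exactly 1 gene symbol and averaging the features of a symbol, and 46 of the 47 were measured among 22180 genes in all. The exception was the disulphide isomerase gene Pdia4, whose feature also carries the symbol of a microRNA and which is not analysed here. Liver RNA of 8 male wild-type mice was hybridized to Affymetrix MoGene 2.0 ST arrays, 4 after vehicle (PBS) and 4 after the pro-inflammatory cytokine interleukin 1 beta (IL1B), to follow hepatocyte identity genes during acute inflammation. The recombinant mouse cytokine was injected into the peritoneum at 0.5 µg per mouse and livers were taken 3 h later, in both groups from animals bought at 7 weeks of age and acclimated for 2 weeks, without any genetic modification. The labels name the strain C57BL/6J in the PBS group but C57BL/6 x CBA in the IL1B group, while the series description gives C57BL/6J throughout, and from the labels an effect of strain cannot be told apart from one of treatment. Whole liver was used, in which a lower number of cells of a type and less RNA per cell cannot be told apart.

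The ER folds secreted proteins, a major task of hepatocytes, and unfolded chains in its lumen are sensed by the transmembrane proteins IRE1 (encoded by Ern1), ATF6 and PERK (Eif2ak3). IRE1 splices the mRNA of the TF XBP1, and ATF6 is cut to release a TF, and both TFs raise chaperone and ERAD genes. PERK instead phosphorylates eIF2 alpha, which slows translation in general and favours that of ATF4, a TF of amino acid synthesis, redox and feedback genes, in a branch shared with other stresses as the integrated stress response (ISR). Accordingly, the members were read as 32 measured ATF6/XBP1-type genes (21 chaperones and folding enzymes, 11 ERAD genes), 5 sensors and TFs, and 9 PERK-ATF4-type genes.

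Promoter sequences are described first, because known binding sites set these branches apart, but they were examined with the array results known. RefSeq windows of 300 bases (250 before to 50 after an annotated start, build GRCm38.p6) were given for 41 of the 47 members, and those of Hyou1, Manf, Derl1, Erlec1, Atf6 and Ppp1r15b were not used here. Stretches are shown of the 5 called genes with the largest change that hold a motif, with 15 bases on either side. They are on the strand of the gene and entirely upstream of an annotated start. For Txndc11 this is a start at 11134532, and its motif lies inside the gene, whose outer limit on that side is 11134645. The capitals mark, for Creld2, Syvn1 and Hspa5, both ends of the ER stress response element ERSE (CCAAT, 9 bases, CCACG, read on the opposite strand in Creld2), for Herpud1 a C/EBP-ATF response element on the opposite strand (CARE, TGATGNAA) and the second form ERSE-II (ATTGG, 1 base, CCACG), and for Txndc11 the UPR element (UPRE, TGACGTGG).
Creld2, chr15:88819505-88819553: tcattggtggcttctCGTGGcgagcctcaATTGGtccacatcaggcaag
Syvn1, chr19:6046517-6046565: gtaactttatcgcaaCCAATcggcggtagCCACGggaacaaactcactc
Herpud1, chr8:94386302-94386402: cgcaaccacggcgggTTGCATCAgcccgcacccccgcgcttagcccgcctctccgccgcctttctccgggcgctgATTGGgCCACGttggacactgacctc
Hspa5, chr2:34772010-34772058: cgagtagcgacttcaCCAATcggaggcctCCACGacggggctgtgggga
Txndc11, chr16:11134612-11134649, minus strand: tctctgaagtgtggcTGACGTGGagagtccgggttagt

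Both strands of every window were searched, and the matches in the members did not overlap one another. ERSE stood in 9 of 29 ATF6/XBP1-type genes with a window (Hspa5, Hsp90b1, Calr, Canx, Pdia6, Dnajc3, Creld2, Syvn1 and Derl3), and in 37 of all 27025 genes (0.137%). ERSE-II stood in Dnajb11 and Herpud1, and in 12 genes of all (0.0444%). Together, one or the other was held by 11 of the 29 ATF6/XBP1-type genes (37.9%), by 0 of 4 sensors and TFs and by 0 of 8 PERK-ATF4-type genes, against 0.181% of all genes, a comparison that is not independent because the element was defined on genes such as these. The element was found in 7 of the 12 ATF6/XBP1-type genes called higher and in 4 of the 16 that were not called. UPRE was found in Txndc5 and Txndc11 (0.714% of all genes). CARE stood in Txndc5 and Herpud1, and in 4.51% of all genes. Among 8 PERK-ATF4-type genes it stood in 4 (Trib3, Chac1, Asns and Nupr1). Of these 4, 0 were called higher, and the called gene of this branch, Atf4, held no CARE. The following 3 CARE stretches, chosen after the motifs were known, are shown to set these genes beside the former, with the motif in capitals.
Chac1, chr2:119351034-119351071: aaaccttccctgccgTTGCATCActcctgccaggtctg
Asns, chr6:7693210-7693247, minus strand: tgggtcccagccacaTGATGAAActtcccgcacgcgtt
Nupr1, chr7:126625558-126625595, minus strand: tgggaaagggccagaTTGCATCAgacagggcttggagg

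All array values below are log2 values after robust multi-array averaging (RMA), and a gene was called when its limma p, adjusted over all 22180 genes, was 0.05 or less. The arrays correlated at 0.965 to 0.993 across genes, and their highest background probe sets lay at 6.65 to 7.08. The first principal component (52.5% of the variance) separated the groups, and IL1B 1 and IL1B 2 (63.7 and 59.0) stood farther from the PBS arrays (-52.3 to -39.2) than IL1B 3 and IL1B 4 (31.6 and 29.2). Across all genes, 1594 were called higher (7.19%) and 1179 lower (5.32%), a split that turned to 1367 and 1523 after quantile normalization, and the median log2 fold change was -0.06. Of 9 hepatocyte markers (summed level 172.4 to 172.9 in PBS, 172.4 to 172.6 in IL1B), 8 were near the ceiling on all arrays, where the sum can hardly move, and Serpina1a was called lower (-0.48, adjusted p = 0.0325). The strain marker gene Nnt, which carries a deletion in C57BL/6J mice, read 9.23 to 10.04 in PBS and 8.57 to 9.73 in IL1B (log2 fold change -0.32, adjusted p = 0.506), and H2-Ea, which C57BL/6 mice do not express, was at background on all 8 arrays.

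A large part of the ER folding genes was higher after IL1B and none was called lower. Of 46 members, 19 were called higher (41.3%) and 0 lower, beside 7.19% and 5.32% of all genes and beside 16.1% and 9.35% of the 8151 genes whose mean lay above background, as the means of 42 members did. No member was lower at an unadjusted limma p of 0.05 either, whereas 29 were higher. Of all 22180 genes, 2899 were higher and 3050 lower at that p, and of the 8151 above background 2171 and 1546. At the study's cutoff of 0.15, 28 members were called higher and 0 lower (all genes 11.9% and 11.7%). All IL1B arrays lay above all PBS arrays for 24 members (9.81% of all genes). The median log2 fold change was 0.80 over the members. A rise of at least 1 log2 unit was called for 14 of them, beside 841 of all 22180 genes and 693 of the 8151 above background. Of the 19 calls, 15 were kept in each of 8 fits that left out 1 array.

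**Figure D1:**
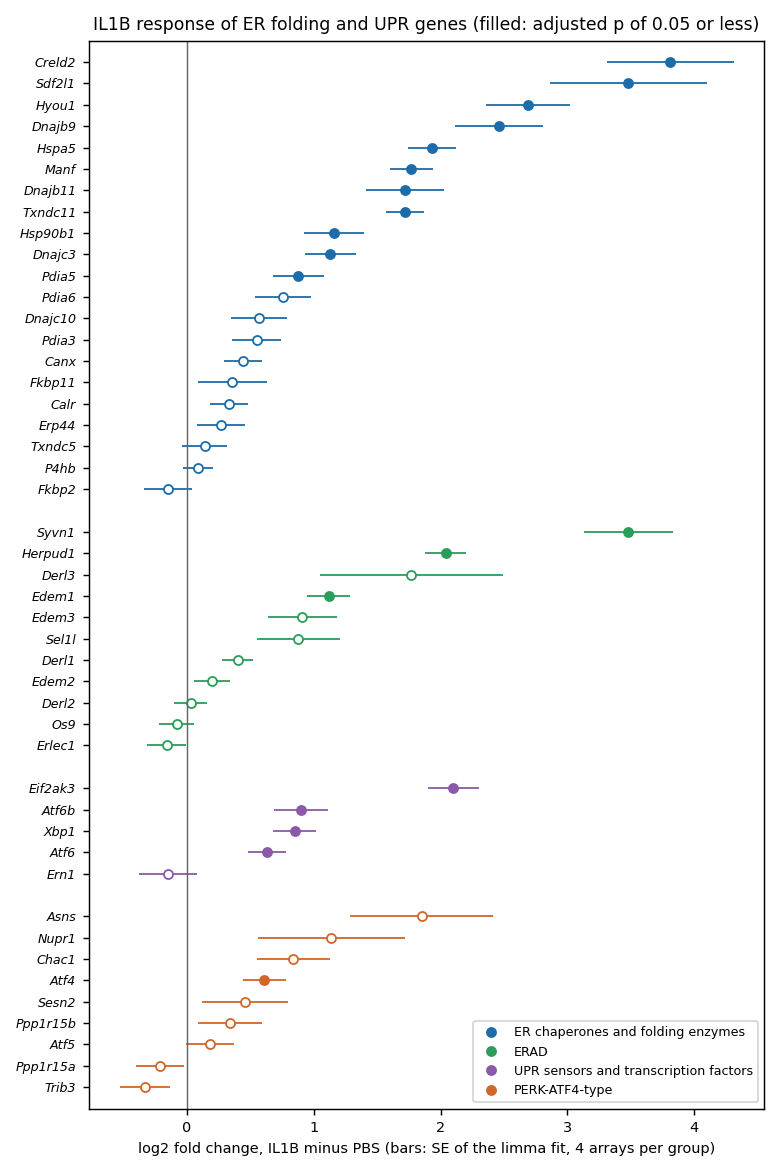
Log2 fold change (IL1B minus PBS) of the 46 measured genes by role, with bars for the SE of the limma fit (4 arrays per group) and filled points for an adjusted p of 0.05 or less. Chaperones (blue) and ERAD genes (green) reach 3.81 and 3.48, whereas among PERK-ATF4-type genes (orange) Atf4 alone is filled.

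Among the abundant lumenal chaperones, the response was uneven. Hspa5, which encodes BiP, the HSP70 chaperone that also restrains the sensors, read 12.72, 12.45, 12.39 and 13 in PBS and 14.97, 14.40, 14.44 and 14.45 in IL1B. The groups were separated by more than a log2 unit, and the rise was 1.93 ± 0.19 (3.8-fold, adjusted p = 0.000299). Here and below, a log2 fold change is given with the SE of the limma fit. Hyou1, a large HSP70-related chaperone that exchanges nucleotides on BiP, read 13.26, 12.21, 13.09 and 13.33 in PBS and 15.68, 16.47, 15.30 and 15.19 in IL1B, a rise of 2.69 ± 0.33 (6.46-fold, adjusted p = 0.000961). Hsp90b1, the ER HSP90 paralogue GRP94, read 17.98, 18.18, 17.69 and 18.22 in PBS and 19.35, 19.77, 18.77 and 18.80 in IL1B. It rose by 1.16 ± 0.24 (adjusted p = 0.0134), with IL1B 1 and IL1B 2 within 1 log2 unit of the highest value of the scale (19.93), where signals are compressed. The lectin chaperone genes Canx (0.44 ± 0.15, adjusted p = 0.0885) and Calr (0.33 ± 0.15, 0.194) were not called, although the Canx values did not overlap between groups (17.11 to 17.30 in PBS, 17.47 to 17.99 in IL1B).

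The J-domain co-chaperones of BiP followed the same direction. Dnajb9 (ERdj4), which also acts on IRE1, read 13.59, 14.51, 14.08 and 14.10 in PBS and 16.40, 17.58, 15.90 and 16.23 in IL1B, a rise of 2.46 ± 0.35 (5.5-fold, adjusted p = 0.00201). Dnajb11 (ERdj3), a co-chaperone of unfolded clients, rose by 1.72 ± 0.31 (adjusted p = 0.00729), from 11.64 to 12.40 in PBS to 13.23 to 14.69 in IL1B. Dnajc3 (P58IPK), a co-chaperone also known as an inhibitor of eIF2 alpha kinases, read 14.97, 15.03, 15.10 and 15.42 in PBS and 16.19, 16.80, 15.98 and 16.05 in IL1B (1.13 ± 0.20, adjusted p = 0.00655). All 3 genes were thus called, with IL1B 2 the highest array for each, whereas Dnajc10 (ERdj5), a reductase of misfolded proteins, was not (0.57 ± 0.22, adjusted p = 0.135).

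The largest changes among the chaperones were those of Creld2 and Sdf2l1. Creld2, a secreted protein of the ER stress response with folding-related activity, read 11.90, 11.71, 12.62 and 12.92 in PBS and 16.57, 17.38, 15 and 15.47 in IL1B. This was a rise of 3.81 ± 0.50 (14.1-fold, adjusted p = 0.00139), number 47 from the top among 22180 genes. Sdf2l1, a component of BiP-containing chaperone complexes, read 9.30, 8.06, 8.60 and 9.37 in PBS and 12.96, 13.97, 11.09 and 11.25 in IL1B (3.48 ± 0.62, 11.2-fold, adjusted p = 0.00652). In both genes the groups were far apart, yet the IL1B arrays themselves spread over more than 2 log2 units, with IL1B 1 and IL1B 2 on top. Manf, a secreted BiP-binding factor, rose by 1.77 ± 0.17 (adjusted p = 0.000293), from 6.60 to 7.17 in PBS, where 2 arrays were at background, to 8.45 to 8.99 in IL1B.

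Disulphide isomerases and thioredoxin-like genes divided into called and uncalled ones. Txndc11, a thioredoxin-domain protein of the ER membrane, read 8.80, 8.60, 9.10 and 8.95 in PBS and 10.62, 10.76, 10.42 and 10.55 in IL1B, a rise of 1.72 ± 0.15 (3.3-fold, adjusted p = 0.000145) with the narrowest spread over IL1B arrays among the chaperones called. Pdia5 read 11.74, 11.49, 11.19 and 11.49 in PBS and 12.62, 12.70, 11.97 and 12.15 in IL1B (0.88 ± 0.20, adjusted p = 0.0188), and this call was lost without PBS 3 or without IL1B 1 (0.79 and 0.80). Pdia6 (0.76 ± 0.22, adjusted p = 0.0509) and Pdia3, the isomerase that works with the lectin chaperones (0.55 ± 0.19, 0.0948), were past the cutoff of 0.15 only, both without overlap of the groups. The values of P4hb (0.09 ± 0.12), Txndc5 (0.14 ± 0.18), Erp44 (0.27 ± 0.19) and the prolyl isomerase genes Fkbp2 (-0.15 ± 0.19) and Fkbp11 (0.36 ± 0.27) overlapped between groups, with adjusted p from 0.398 to 0.681. In all, 11 of 21 chaperone and folding genes were called higher (52.4%, beside 7.19% of all genes) and 0 lower. Their median was 0.88.

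In ERAD, 3 of 11 genes were called higher (27.3%) and 0 lower, with a median of 0.88. Of all genes 7.19% were called higher, and of those with a mean above background 16.1%. Syvn1, which encodes the ubiquitin ligase HRD1 at the centre of ERAD, read 9.81, 9.48, 9.73 and 10.22 in PBS and 13.42, 14.31, 12.53 and 12.91 in IL1B. Each IL1B array lay at least 2 log2 units above each PBS array, and the rise was 3.48 ± 0.35 (11.2-fold, adjusted p = 0.000322). Herpud1, a membrane protein that assembles the HRD1 complex, read 16.31, 16.46, 16.77 and 16.19 in PBS and 18.62, 18.62, 18.30 and 18.34 in IL1B (2.04 ± 0.16, 4.11-fold, adjusted p = 9.25e-05). Edem1, which directs mannose-trimmed glycoproteins to degradation, read 10.99, 10.97, 11.27 and 11.46 in PBS and 12.28, 12.62, 12.21 and 12.06 in IL1B (1.12 ± 0.17, adjusted p = 0.00301), as the mean of 2 features that gave 1.53 and 0.72.

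The other 8 ERAD genes of the list were not called. Sel1l, the partner that stabilizes HRD1, had 0.88 ± 0.33 (adjusted p = 0.124) with overlapping groups. Among the derlins, which form the channel with HRD1, Derl1 had 0.40 ± 0.12 (adjusted p = 0.0584) without overlap, and Derl2 had 0.03 ± 0.13 (0.909), its features differing in sign (0.24 and -0.18). Derl3 read 7.27, 4.67, 5.83 and 6.88 in PBS and 8.54, 9.57, 6.66 and 6.95 in IL1B (1.77 ± 0.72, adjusted p = 0.151). Its PBS values spread over more than 2 log2 units, with 2 of them at background, and the groups overlapped. Edem3 had 0.91 ± 0.27 (adjusted p = 0.0543), Edem2 0.20 ± 0.14 (0.395), and the glycan-binding lectin genes Os9 and Erlec1 -0.08 ± 0.14 (0.752) and -0.16 ± 0.15 (0.570).

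**Figure D2:**
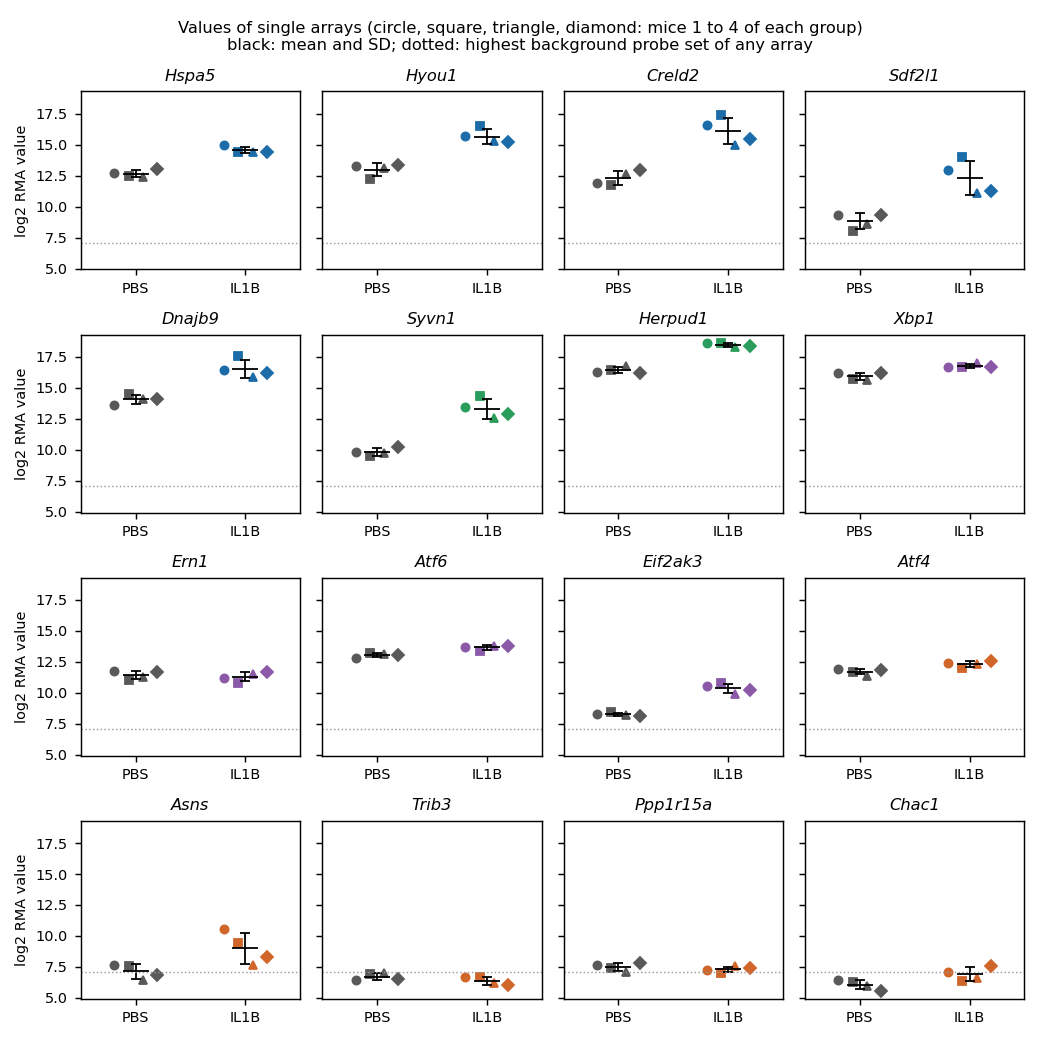
Log2 RMA values of 16 genes on each array (symbols for mice 1 to 4 of each group), with the mean and SD in black and the highest background probe set of any array (7.08) as a dotted line. The IL1B values of Hspa5 to Herpud1 lie above all PBS values, those of Ern1 overlap them, and Trib3, Ppp1r15a and Chac1 stay near the dotted line in both groups.

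Of the 5 sensors and TFs, 4 were called higher (80.0%) and 0 lower, beside 7.19% and 5.32% of all genes. Eif2ak3, the gene of the sensor PERK, read 8.26, 8.46, 8.21 and 8.11 in PBS and 10.53, 10.79, 9.89 and 10.26 in IL1B, a rise of 2.10 ± 0.20 (4.3-fold, adjusted p = 0.000228) and the largest of this group. Ern1, the gene of the sensor IRE1, read 11.79, 11.03, 11.32 and 11.66 in PBS and 11.18, 10.83, 11.49 and 11.67 in IL1B, with the groups fully intermixed (-0.15 ± 0.23, adjusted p = 0.719). Atf6 read 12.81, 13.19, 13.13 and 13.05 in PBS and 13.69, 13.38, 13.82 and 13.81 in IL1B. Its groups were apart by a small margin (0.63 ± 0.15, adjusted p = 0.0242), and of the 8 fits with 1 array left out (0.55 to 0.73) those lacking PBS 1, PBS 4 or one of IL1B 1, IL1B 3 and IL1B 4 lost the call. Its paralogue Atf6b read 7.58, 7.45, 8.05 and 7.88 in PBS and 8.97, 8.90, 8.40 and 8.30 in IL1B (0.90 ± 0.21, adjusted p = 0.0198), a call lost without PBS 1 or IL1B 1 (0.85 and 0.80).

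Xbp1, the TF spliced by IRE1 and with Atf6 and Atf4 one of the Hep-ID CONNECT TFs of the study, read 16.18, 15.67, 15.66 and 16.16 in PBS. In IL1B it read 16.66, 16.71, 17.00 and 16.71, which was higher by 0.85 ± 0.17 (1.81-fold, adjusted p = 0.0112). The arrays give 1 value for all Xbp1 transcripts, so spliced and unspliced forms were not separated. Nor were the phosphorylation of PERK and IRE1 or the cleavage of ATF6 measured.

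Of the 9 PERK-ATF4-type genes, 1 was called higher (11.1%) and 0 lower, a share between that of all genes (7.19%) and of genes with a mean above background (16.1%). Their median was 0.46, the value of Sesn2, and 0.48 over the genes with a mean above background. With genes at background in all PBS arrays set to their bound it was 0.21, the bound of Chac1. Neither Sesn2 nor Chac1 has a measured fold. Of the 32 ATF6/XBP1-type genes, 14 were called higher (43.8%), and their median was 0.88, also over those with a mean above background. Means above background were found for 6 of the 9 and for 31 of the 32. The called gene was Atf4 itself, with 11.91, 11.71, 11.40 and 11.87 in PBS and 12.42, 12.01, 12.32 and 12.56 in IL1B (0.61 ± 0.17, adjusted p = 0.0460). PBS 1 and IL1B 2 nearly met, and only the fit without IL1B 2 kept the call when arrays were left out in turn, the other 7 losing it (0.50 to 0.67). ATF4 is controlled mainly in translation, which arrays do not measure.

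Feedback genes of this branch were not called. Ppp1r15a (GADD34), the inducible subunit of the eIF2 alpha phosphatase, read 7.70, 7.44, 7.08 and 7.85 in PBS and 7.25, 7.05, 7.55 and 7.40 in IL1B (-0.21 ± 0.19, adjusted p = 0.548). The pseudokinase gene Trib3 had -0.33 ± 0.20 (0.339), with 2 arrays of each group at background. In neither gene did an IL1B array exceed the highest PBS array, and the constitutive phosphatase subunit gene Ppp1r15b (0.34 ± 0.25, 0.423) and the TF gene Atf5 (0.18 ± 0.19, 0.597) overlapped between groups as well. Chac1, which degrades glutathione, read 6.43, 6.30, 6.00 and 5.59 in PBS, all at background, and 7.08, 6.33, 6.65 and 7.61 in IL1B, of which 2 were at background. With background values raised to the background level, the difference was 0.21 log2 units. The limma fit of the values as read did not call the gene (adjusted p = 0.0914). For Sesn2, a stress-induced inhibitor of mTORC1 signalling, that difference was 0.12 (adjusted p = 0.442), also with 2 IL1B arrays at background. Because IL1B values were raised as well, neither difference is a lower limit.

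Asns and Nupr1 had larger but more scattered values. Asns, the asparagine synthetase gene and a classical ATF4 target, read 7.69, 7.54, 6.46 and 6.88 in PBS and 10.53, 9.46, 7.68 and 8.30 in IL1B (1.85 ± 0.56, adjusted p = 0.0622). IL1B 1 and IL1B 2 were well above all PBS arrays and IL1B 3 within their range. Nupr1, a stress-induced chromatin-associated protein gene, read 7.05, 8.90, 6.71 and 6.89 in PBS and 9.37, 9.40, 7.92 and 7.42 in IL1B (1.14 ± 0.58, adjusted p = 0.246), PBS 2 standing apart from the other PBS arrays.

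**Figure D3:**
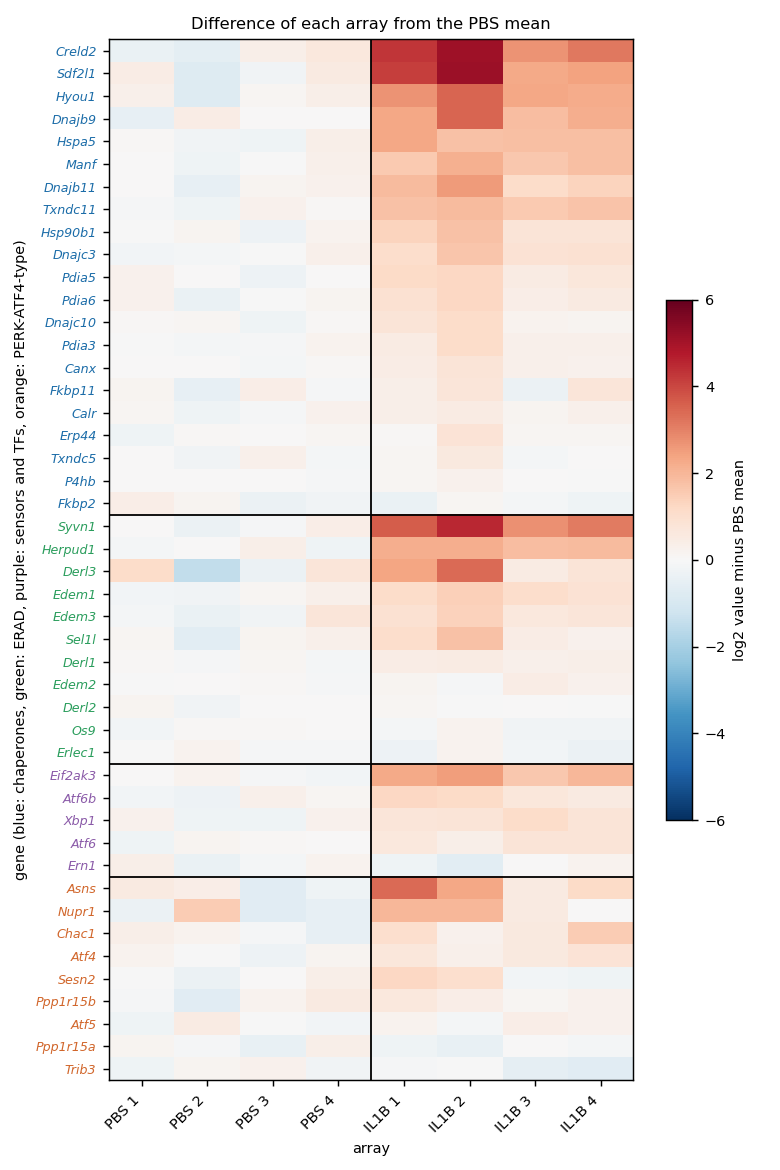
Difference of each array from the PBS mean (log2 units, red higher, blue lower) for the 46 genes, ordered by role and log2 fold change. IL1B 1 and IL1B 2 are darkest for Creld2, Sdf2l1, Syvn1 and Asns, whereas Xbp1 and Atf6 are about even over the 4 IL1B arrays.

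The size of the response differed between IL1B mice. The mean over the 32 ATF6/XBP1-type genes was 12.73, 12.47, 12.67 and 12.86 in PBS and 13.91, 14.34, 13.49 and 13.59 in IL1B (12.68 ± 0.16 and 13.83 ± 0.38, SD, n = 4), a difference of 1.15. That over the 9 PERK-ATF4-type genes was 8.81, 8.96, 8.58 and 8.74 in PBS and 9.75, 9.40, 9 and 9.11 in IL1B, a difference of 0.54. All IL1B arrays were above all PBS arrays in both means, and IL1B 1 and IL1B 2 were the highest in both. The former mean exceeded the latter by 3.52 to 4.12 in PBS and by 4.16 to 4.94 in IL1B, a descriptive contrast that was not tested. Over the 5 sensors and TFs, the mean moved from 11.28 ± 0.09 to 12.15 ± 0.04 (SD, n = 4 per group). The single genes were less even than this mean, since IL1B 1 and IL1B 2 together exceeded IL1B 3 and IL1B 4 by 0.59 for Eif2ak3 and Atf6b but were lower for Ern1 (-0.57), Atf6 (-0.28) and Xbp1 (-0.17).

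Among the 14 ATF6/XBP1-type genes called higher, IL1B 2 was the highest array in 12 and IL1B 1 in the other 2. Both were the top 2 arrays in 12 of the 14 (85.7%), beside 484 of the 1594 genes called higher in all (30.4%). Without both arrays, an alternative chosen after the data were seen, 15 members were still called higher, 12 of them ATF6/XBP1-type, and the median of the ATF6/XBP1-type genes was 0.52. The summed level of 9 neutrophil markers moved with these arrays, at 40.8 to 47.4 in PBS, 90.3 and 98.4 in IL1B 1 and IL1B 2, and 61.5 and 61.7 in IL1B 3 and IL1B 4. Of the 9, 6 were called higher (S100a8, S100a9, Retnlg, Ly6g, Csf3r and Cxcr2). The sum of 8 Kupffer cell and macrophage markers was 105.9 and 100.2 in IL1B 1 and IL1B 2 and 78.1 to 88.0 elsewhere, with 0 of 8 called at the limma threshold. Their part in the result was not tested. Markers of plasma cells, which are rich in ER chaperones, were at background on all arrays (8 of 8 B and plasma cell genes, summed level 37.8 to 40.7 in PBS and 35.8 to 36.6 in IL1B), as were 7 of 7 T and NK cell genes.

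**Figure D4:**
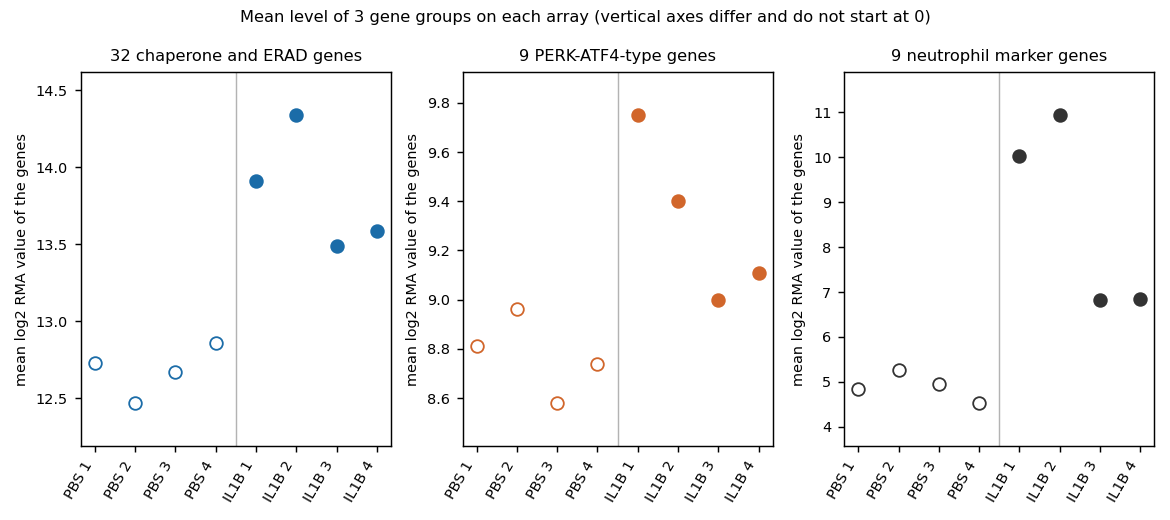
Mean log2 RMA value on each array (open, PBS; filled, IL1B) of 32 chaperone and ERAD genes, 9 PERK-ATF4-type genes and 9 neutrophil marker genes, on vertical axes that differ and do not start at 0. In all 3 panels the IL1B arrays lie above the PBS arrays and IL1B 1 and IL1B 2 above IL1B 3 and IL1B 4.

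Other genes of the pathway, from lists that hold none of the members, moved in part. Of 34 further ER quality control genes, 31 were measured, of which 11 were called higher (35.5%) and 1 lower (median 0.34). Of all genes, 7.19% were called higher and 5.32% lower. Creb3l2, a membrane-bound TF related to ATF6, read 8.57, 8.52, 8.28 and 7.90 in PBS and 11.54, 11.28, 11.38 and 11.50 in IL1B, a rise of 3.11 ± 0.17 (8.61-fold, adjusted p = 1.29e-05). Its IL1B arrays were nearly equal, unlike those of Creld2 or Syvn1. The HSP70-like gene Hspa13 rose by 1.79 ± 0.18 and the ERAD adaptor gene Ubxn4 by 1.14 ± 0.14, while the ER membrane protein gene Wfs1 was higher by at least 0.29 from background in PBS (adjusted p = 0.00861). Creb3l3, the hepatic member of the same TF family, was the 1 gene called lower (-1.13 ± 0.25, adjusted p = 0.0168), a call lost without PBS 1 (-1.25 to -0.88 over the arrays left out).

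Of 28 further ISR genes, 27 were measured, 10 called higher (37.0%, beside 7.19% of all genes) and 1 lower (median 0.32). With a mean above background there were 14, of which 8 were called higher. Beside them stand 14 of 31 such ATF6/XBP1-type members and 16.1% of all such genes. Ddit3, which encodes the TF CHOP, read 7.02, 7.57, 7.40 and 7.81 in PBS and 9.13, 9.50, 8.64 and 9.10 in IL1B, a rise of 1.65 ± 0.22 (3.13-fold, adjusted p = 0.00160) without overlap. Ddit4, an mTORC1 inhibitor gene that glucocorticoids also induce, was at background in PBS and at least 3.23 log2 units higher (adjusted p = 0.00152), with IL1B values from 7.86 to 12.19. The mitochondrial folate enzyme gene Mthfd2 was at least 2.44 log2 units higher (adjusted p = 0.000689). Jdp2, a TF gene, was called higher with 3 IL1B arrays still at background, and the serine synthesis gene Phgdh was called lower at background on all 8 arrays, so neither has a measured fold. These 10 of 27 calls stand beside 1 of 9 among the PERK-ATF4-type members, and the difference was not tested.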

How the data were processed

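Liver RNA of 8 mice, labelled as separate animals, was hybridized to 8 arrays, and 4 arrays per group limit the precision. Per the study's methods, the authors normalized the arrays with Affymetrix Power Tools (GC correction when available, intensity scaling, RMA at the probe set level), and the deposited values are log2. Of 41345 features, 23521 carry 1 symbol, 1820 several and 16004 none. Values were averaged per symbol (22180 genes) and tested with limma 3.58.1 (R 4.3.3; lmFit and eBayes, group as the only factor) with Benjamini-Hochberg adjustment over all genes, a fit first tested on simulated data. A value counted as at background when not above the highest of 23 background probe sets of its array, and as near the ceiling from 18.93 upwards. A bound sets background values of both groups to that level first. It is a lower limit of a rise only where no IL1B value is at background.

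The members and lists were chosen with earlier results of these data known. Values of every array are given for the 8 largest and 8 smallest log2 fold changes among called members and for Hspa5, Xbp1, Ern1, Atf6, Eif2ak3 and Atf4, and for others after their values were seen. Up to 4 called genes per direction are named of each pathway list. Of the other marker lists, 2 of 6 endothelial genes were called higher and 2 lower, 1 of 6 stellate genes lower, 1 of 4 cholangiocyte genes higher and 1 of 9 hepatocyte genes lower. Alternatives changed the scaling (quantile or median), the feature per gene, the filter, the variance model, the array weights, the threshold, the replicate block and the arrays included. A planned comparison of protein ends is not analysed here.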

Additional observations from a re-analysis of the deposited data

Results flagged for a closer look

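Of 92 groups of 4 values (46 genes in each of 2 groups), 6 held an array whose gap to its nearest neighbour exceeded, as a share of the range of the group, Dixon's critical value, which chance passes in about 5% of groups. In IL1B, Hspa5 read 14.97 on IL1B 1 (14.40 to 14.45 on the others), Erp44 read 13.11 on IL1B 2 (12.37 to 12.43) and Xbp1 read 17.00 on IL1B 3 (16.66 to 16.71). In PBS, P4hb read 17.17 on PBS 4 (17.26 to 17.27), Dnajc10 read 9.70 on PBS 3 (10.04 to 10.10) and Nupr1 read 8.90 on PBS 2 (6.71 to 7.05). The 6 flags fell on 6 different arrays. Of these genes, Hspa5 and Xbp1 were called higher, and both calls were kept in each fit that left out 1 array.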

How the results depend on the processing

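No member was called lower in any alternative run, and the number called higher ranged from 13 (adjusted p of 0.01) to 28 (0.15), with 15 to 20 over the arrays left out 1 at a time, 17 after quantile normalization, 23 after median centring and 24 with the filter on dim genes. Over all genes, 1030 were called higher and 530 lower without IL1B 1 and IL1B 2, 2634 and 2592 at a threshold of 0.15, and 747 and 381 at 0.01. With 1 array left out, 1082 to 1399 were called higher and 676 to 1077 lower, the latter at 676 without IL1B 1, 677 without PBS 1 and 781 without PBS 3. The median of the ATF6/XBP1-type genes was 0.68 to 1.01 with 1 array left out, 0.77 after quantile normalization and 0.52 without IL1B 1 and IL1B 2. That of the PERK-ATF4-type genes was 0.25 to 0.61, lowest without IL1B 1. It was 0.21 with members at their bound and 0.48 over members with a mean above background. The PERK-ATF4-type genes called higher numbered 0 to 2 (0 after quantile normalization), and 3 at 0.15. Derl2 changed sign after quantile normalization (-0.12) and over the arrays left out (-0.03 to 0.09), and without IL1B 1 and IL1B 2 so did Txndc5 (-0.05), Ern1 (0.13) and Sesn2 (-0.20), none of which was called. Without both arrays the calls of Hsp90b1 (0.77), Pdia5 (0.59), Atf6b (0.61) and Atf4 (0.72) were lost, and quantile normalization ended those of Pdia5 (0.76) and Atf4 (0.48). The cause of these changes was not tested. Deviations from the group mean correlated at -0.073, 0.223, 0.052 and 0.122 between same-numbered arrays. Between differently numbered ones they correlated at -0.19 to 0.081, and these values do not settle whether the numbers pair the arrays. With the number as a replicate block, 17 members were called higher. Over all genes, 1468 were then called higher and 1094 lower. The calls of Atf6, Atf6b and Atf4 were lost with the block, and Asns was gained.

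Chac1 and Sesn2, at background in all PBS arrays and in 2 IL1B arrays each, have no measured fold, and Hsp90b1 lies near the ceiling. The p-values set each group difference against the spread between mice (4 per group), which limma estimates partly from all genes. The differing strain labels cannot be told apart from treatment.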
